A study of Mus musculus with 16 samples.

Results

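Spi1 occupancy was compared between T2 and T1 in MPP3 cells sorted from the bone marrow of KO-iMOS mice. The comparison rests on 4 of the 16 libraries of the series: Spi1 in KO-iMOS T1 (2 libraries) and Spi1 in KO-iMOS T2 (2 libraries), all 4 titled 3m and chosen by their titles. The other 12 libraries are from WT-iMOS mice, with Spi1 and Bcl11a each profiled in T1 (3 libraries) and T2 (3 libraries), and they serve here as an independent readout. The labels do not explain iMOS, KO, T1, T2 or 3m. They name no promoter, allele or inducing agent, and they do not say whether replicates are separate animals, so p-values measure only the spread between these samples, which may be technical. Peak names in the files start with PWT in both T1 lists and with PKO in both T2 lists, prefixes that are likewise unexplained. A reader who takes them for a genotype would read T2 against T1 differently from one who takes KO-iMOS as the genotype of all 4. The study's stated interest is how Bcl11a works in MPP3.

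Spi1 encodes PU.1, an ETS-family transcription factor that binds purine-rich DNA with a GGAA core and is required for the myeloid and lymphoid lineages. In progenitors it occupies many distal enhancers as well as promoters, often beside Runx, C/EBP or interferon regulatory factors. MPP3 cells are multipotent progenitors biased towards granulocytes and monocytes. CUT&Tag directs a transposase to an antibody on chromatin, so a peak marks DNA cut near the bound factor. A peak is occupancy and not expression. In such bulk libraries, fewer cells carrying a site and less binding per cell cannot be told apart.

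Some of the T1-only and T2-only regions covered a gene's start, and 8 such promoters show the DNA on which the lists differed. The 250 bases before the start are given 5′ to 3′ on the gene's strand, from RefSeq (GRCm38.p6, the assembly that mm10 names), with every GGAA or TTCC in capitals. The first 4 lay under a region called only in T1: Cd48, a receptor of the SLAM family (chr1:171681742-171681991, + strand), Id2, an inhibitor of E-protein transcription factors (chr12:25096093-25096342, - strand), Nlrp3, the inflammasome sensor (chr11:59542436-59542685, + strand), and Cd5, a lymphocyte surface receptor (chr19:10738975-10739224, - strand). The other 4 lay under a region called only in T2: Tfrc, the transferrin receptor (chr16:32608646-32608895, + strand), Pf4, a platelet chemokine (chr5:90772185-90772434, + strand), Dok3, an adaptor that dampens immune receptor signalling (chr13:55528539-55528788, - strand), and Nr0b2, an orphan nuclear receptor that acts as a corepressor (chr4:133553126-133553375, + strand). The calls are those of the equal-length lists. In the full lists Pf4 also had a lower-ranked peak in both T1 lists, and Tfrc and Dok3 in T1 replicate 1, so these 3 calls are by rank. The 8 were chosen after their values were seen.
Cd48: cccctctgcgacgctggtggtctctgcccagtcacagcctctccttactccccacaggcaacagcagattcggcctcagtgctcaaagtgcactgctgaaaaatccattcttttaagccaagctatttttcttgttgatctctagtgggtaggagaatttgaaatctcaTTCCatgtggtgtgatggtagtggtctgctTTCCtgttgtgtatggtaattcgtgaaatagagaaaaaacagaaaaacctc
Id2: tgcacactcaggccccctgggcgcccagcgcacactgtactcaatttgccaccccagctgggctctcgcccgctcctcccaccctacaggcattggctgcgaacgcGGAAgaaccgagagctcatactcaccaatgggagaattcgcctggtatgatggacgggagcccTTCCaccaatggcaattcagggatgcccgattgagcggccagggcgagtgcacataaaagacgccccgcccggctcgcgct
Nlrp3: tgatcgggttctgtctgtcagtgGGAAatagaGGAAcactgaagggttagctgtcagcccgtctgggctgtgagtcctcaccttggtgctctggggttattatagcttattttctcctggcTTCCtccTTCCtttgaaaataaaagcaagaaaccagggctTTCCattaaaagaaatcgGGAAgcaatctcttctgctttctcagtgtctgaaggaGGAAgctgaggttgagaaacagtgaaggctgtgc
Cd5: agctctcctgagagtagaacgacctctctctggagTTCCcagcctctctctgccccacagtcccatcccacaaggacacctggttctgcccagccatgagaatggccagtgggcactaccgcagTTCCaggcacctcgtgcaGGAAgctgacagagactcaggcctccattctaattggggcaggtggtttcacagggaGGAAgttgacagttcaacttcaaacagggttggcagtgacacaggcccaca
Tfrc: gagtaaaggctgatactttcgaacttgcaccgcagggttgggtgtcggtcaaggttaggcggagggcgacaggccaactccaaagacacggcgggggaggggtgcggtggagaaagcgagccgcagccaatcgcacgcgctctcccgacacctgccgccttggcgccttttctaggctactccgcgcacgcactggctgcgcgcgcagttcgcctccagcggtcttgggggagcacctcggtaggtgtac
Pf4: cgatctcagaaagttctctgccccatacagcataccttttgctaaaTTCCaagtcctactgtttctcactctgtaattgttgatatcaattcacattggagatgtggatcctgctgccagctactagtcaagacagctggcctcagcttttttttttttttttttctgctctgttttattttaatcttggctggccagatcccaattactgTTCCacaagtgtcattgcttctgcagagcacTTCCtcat
Dok3: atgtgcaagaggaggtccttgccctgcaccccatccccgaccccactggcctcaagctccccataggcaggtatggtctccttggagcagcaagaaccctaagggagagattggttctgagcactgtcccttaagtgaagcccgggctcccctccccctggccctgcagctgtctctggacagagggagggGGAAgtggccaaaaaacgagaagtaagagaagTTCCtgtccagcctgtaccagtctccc
Nr0b2: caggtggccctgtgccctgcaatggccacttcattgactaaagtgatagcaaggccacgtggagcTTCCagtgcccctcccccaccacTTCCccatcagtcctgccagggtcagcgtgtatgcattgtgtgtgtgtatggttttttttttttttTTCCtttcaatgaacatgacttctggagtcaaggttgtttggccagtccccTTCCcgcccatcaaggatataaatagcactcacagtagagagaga

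The lists differed in length more between replicates than between sides. T1 replicate 1 held 20177 peaks on assembled chromosomes and T1 replicate 2 held 12984. T2 replicate 1 held 14814 and T2 replicate 2 held 6337. The T2 list of replicate 1 was thus longer than one of the T1 lists, and the 2 groups overlapped. The means were 16580.5 ± 5086 (SD, n = 2) for T1 and 10575.5 ± 5994 (SD, n = 2) for T2, a ratio of 1.57 that was within the spread of the libraries (exact permutation, two-sided p = 0.667, adjusted 0.889 over 4 measures of the lists). With 2 libraries against 2 that p cannot go below 0.333. The read depth behind each list is unknown. Median peak width was 493 and 444 bp in T1 and 467 and 490 bp in T2, and covered length was 10.9 and 6.34 Mb against 7.64 and 3.41 Mb.

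Because a long list calls more regions, each comparison was made on full lists and on lists of equal length, each cut to its 6337 peaks with the highest deposited −log10 p. That cut fell at a −log10 p of 16.7 and 11.95 in T1 and of 12.7 and 4.84 in T2. The weakest peaks kept in T2 replicate 2 were therefore far weaker than those kept elsewhere. Under a further, strict rule a region needed a peak in both equal-length lists of one side and in neither full list of the other.

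On full lists T1 and T2 were about as alike across sides as within them. The Jaccard index, the share of covered base pairs that 2 lists have in common, was 0.446 between the T1 replicates, 0.337 between the T2 replicates and 0.372 on average between T1 and T2 (range 0.258 to 0.446 over 4 pairs; exact one-sided permutation p = 0.667). At equal length it was 0.544 within T1, 0.439 within T2 and 0.442 between them (range 0.395 to 0.493; exact permutation, one-sided p = 0.333, the lowest it can reach). The T2 replicates resembled each other no more than a T2 list resembled a T1 list on average. At equal length the T1 pair stood above all 4 pairs between sides. There T2 replicate 2 was closer to T2 replicate 1 (0.439) than to the T1 lists (0.395 and 0.398). T2 replicate 1 was closer to the T1 lists (0.493 and 0.481) than to T2 replicate 2.

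Regions common to T1 and T2 were the largest class under the full and equal-length rules, and the number called on one side depended on list length. Merging peaks that shared at least 1 bp gave 24175 regions, of which 15067 had a peak in at least 2 lists and 6898 in at least 2 equal-length lists. These numbers are the denominators of the shares below. On full lists 5000 regions (33.2%) had a peak in all 4, 2147 (14.2%) were T1-only, with a peak in both T1 lists and neither T2 list, and 183 (1.21%) were T2-only. The ratio of T1-only to T2-only was 11.7. At equal length 3157 regions (45.8%) were in all 4 lists, 641 (9.29%) were T1-only and 497 (7.2%) were T2-only, a ratio of 1.29. The strict rule left 234 T1-only regions (3.39%) and 60 T2-only regions (0.87%), a ratio of 3.9. No test was run on these counts, since an exact permutation of 2 libraries against 2 cannot go below 0.333.

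The order of these counts changed with the libraries kept. A further 4136 regions had a peak in both T1 lists and in T2 replicate 1 and lacked one only in T2 replicate 2. Without that library the full lists gave 2345 T1-only and 2415 T2-only regions. Lists without it gave 957 and 1294 at the same 6337 peaks and 1832 and 2629 at the remaining shortest length of 12984. Without T2 replicate 1 the counts were 6283 and 388 on full lists and 1432 and 1855 at equal length. A side with 1 list left needs a peak in that list alone, so T2-only counts rise by construction when a T2 library is left out. Another 5635 regions were found in T1 replicate 1 alone.

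**Figure D1:**
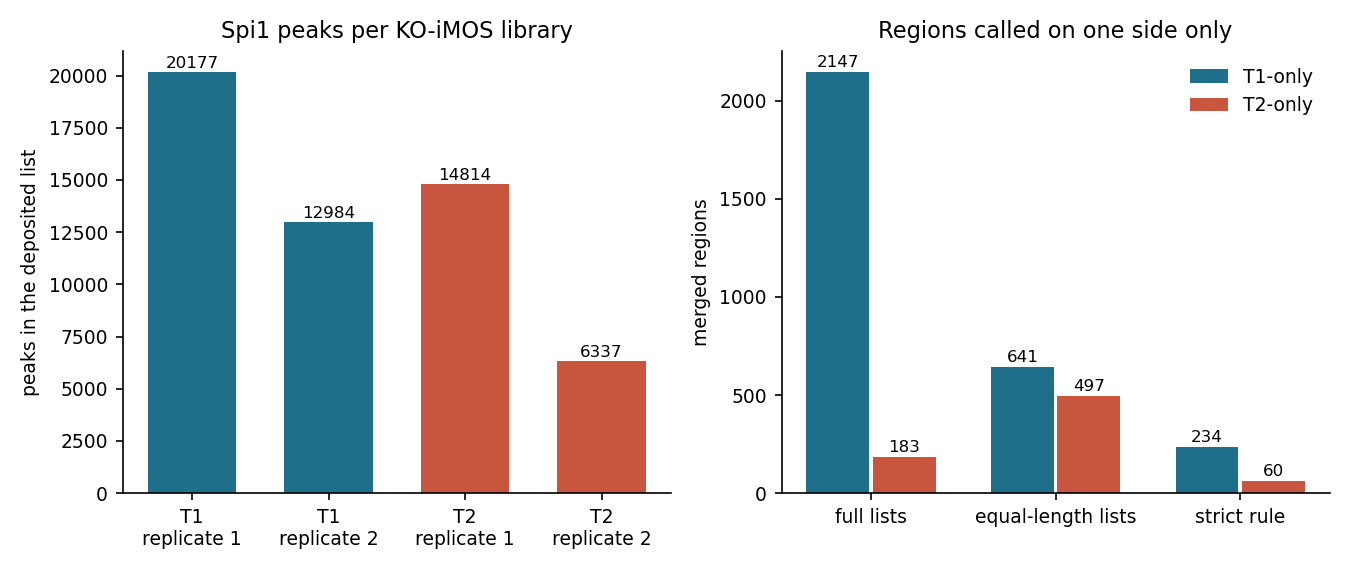
Number of peaks per KO-iMOS Spi1 list (left, 1 bar per library) and number of merged regions called T1-only or T2-only under the 3 rules (right). The excess of T1-only regions, 2147 against 183 on full lists, was 641 against 497 once lists had the same length.

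Many regions called on one side at equal length had a lower-ranked peak on the other side. Of the 641 T1-only regions 407 (63.5%) had such a peak in T2, all in T2 replicate 1, since T2 replicate 2 was not shortened. Of the 497 T2-only regions 437 (87.9%) had one in a full T1 list, 300 of them in both. For these the call rests on rank and not on the absence of a peak. The called regions ranked low in their own lists: the median percentile of −log10 p within the equal-length list (100 is the highest peak) was 32.8 and 33.6 for T1-only regions in the T1 lists and 27.3 and 38.8 for T2-only regions in the T2 lists. Regions in all 4 lists had medians of 70.8 to 72.5.

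T1-only regions lay at genes' ends less often than T2-only regions when lists had equal length. Their centre was within 1 kb of a gene boundary (either end of a protein-coding gene) in 20.0% of 641 regions (95% exact binomial interval 16.9 to 23.3) for T1-only and in 32.6% of 497 (28.5 to 36.9) for T2-only. Regions in all 4 lists stood at 32.1% and all 6898 regions at 32.3%, so it was the T1-only class that departed. T1-only regions were also more often over 10 kb from any gene, 28.1% against 18.7% for T2-only and 22.3% for all 4. Measured from listed transcription starts, which were to hand for 17491 of 21883 genes, the shares were 14.3% for T1-only and 31.1% for T2-only. The intervals cover counting error only, and regions of the same libraries are not replicates of a condition.

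The position of T2-only regions changed with the rule, and that of T1-only regions less so. On full lists 22.2% of T1-only and 17.5% of T2-only regions lay within 1 kb of a boundary, both below the 34.3% of regions in all 4 lists. Under the strict rule the shares were 14.5% of 234 and 3.33% of 60. The T2-only regions near gene ends were thus mostly those that also had a weaker T1 peak. Strict regions of both sides lay within 1 kb of a boundary less often than all 6898 regions tested at equal length (32.3%). Over 10 kb from any gene lay 32.1% of strict T1-only and 26.7% of strict T2-only regions, beside 22.5% of all tested. At equal length T1-only remained the lower class without each of the 4 libraries in turn, with T1-only minus T2-only differences from -11.6 to -4.19 percentage points (-4.19 without T2 replicate 1, against -12.6 with all 4 libraries). Over whole lists of equal length, 30.8% of T1 and 33.0% of T2 summits were near a boundary, with both T2 lists above both T1 lists (exact two-sided permutation p = 0.333, the smallest possible, adjusted 0.667).

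**Figure D2:**
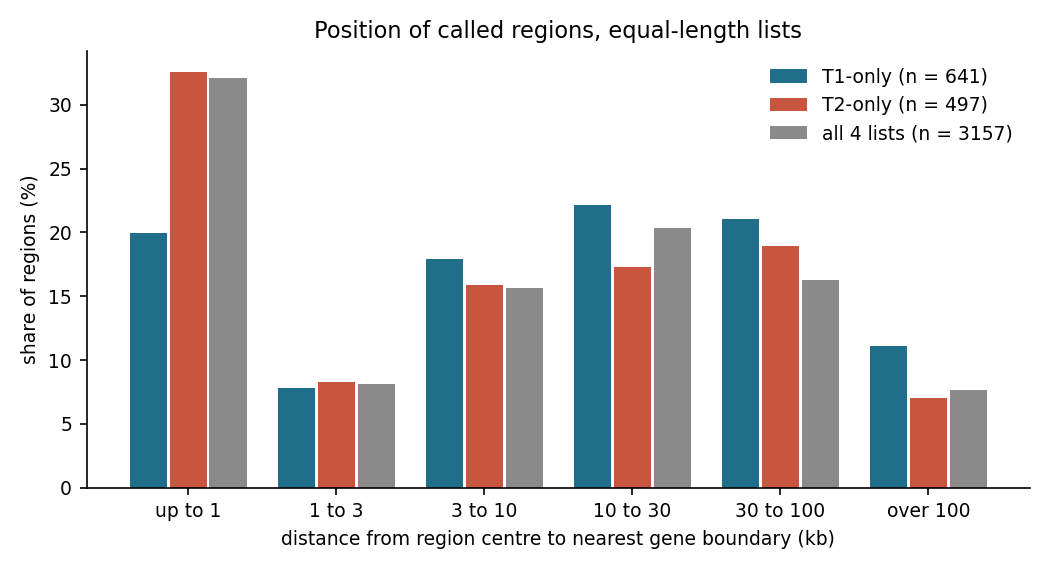
Share of regions (%) by distance from the region's centre to the nearest gene boundary (kb), for 641 T1-only, 497 T2-only and 3157 common regions of the equal-length lists. In the bin up to 1 kb the T1-only bar stands at 20.0%, below the 32.6% of T2-only and the 32.1% of common regions.

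The WT-iMOS libraries, which had no part in calling the regions, held the T1-only regions more often than the T2-only regions. At equal length the WT-iMOS Spi1 T1 lists had a peak in 61.9, 39.5 and 29.5% of T1-only regions and in 28.6, 15.7 and 9.26% of T2-only regions (replicates 1 to 3). The WT-iMOS Spi1 T2 lists had a peak in 75.8, 35.9 and 18.6% of T1-only and in 48.9, 20.3 and 10.1% of T2-only regions. The T1-only share was the higher one in 6 of 6 lists, whether the WT-iMOS cells were T1 or T2. The mean difference was 21.4 percentage points ± 8.73 (SD, n = 6; exact sign-flip permutation, two-sided p = 0.03125, the smallest possible, and 0.0625 after Benjamini-Hochberg adjustment over 4 tests). It was 13.6 points on full lists and 35.3 points under the strict rule, both with the same exact permutation p of 0.03125 and adjusted 0.125. No adjusted value can pass 0.05 in this design. All 6 lists scored the same called regions, so these p-values measure agreement among the WT-iMOS lists only. They carry none of the spread between the KO-iMOS libraries from which the regions were called. The difference did not differ between WT-iMOS T1 and T2 lists beyond their spread (25.8 against 17.0 points at equal length, exact permutation p = 0.3, smallest possible 0.1).

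Counted over the 6 WT-iMOS Spi1 lists together, 85.3% of the T1-only and 56.9% of the T2-only regions had a peak in at least 1, beside 96.6% of the regions in all 4 KO-iMOS lists. Under the strict rule these were 82.1% of 234 T1-only regions and 20.0% of 60 T2-only regions. A peak in none of the 12 WT-iMOS lists was the case for 12.6% of T1-only and 34.6% of T2-only regions at equal length, and for 16.7% and 71.7% under the strict rule. The strict T2-only regions, outside both full T1 lists by the rule, were thus mostly outside every WT-iMOS list as well. The strict rule filtered the classes unevenly, since the full T1 lists were longer on average than the full T2 lists. The part of this in the strict shares was not tested.

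Whole lists showed the same order on a smaller scale. Of the 6337 highest peaks, 57.5% and 57.9% of those in T1 and 54.2% and 48.9% of those in T2 had a peak in a WT-iMOS Spi1 list, averaged over the 6 lists. Both T2 values were below both T1 values in 6 of 6 WT-iMOS lists. For Bcl11a the averages were 19.9% and 20.7% for T1 and 21.3% and 17.8% for T2, with T2 replicate 1 the highest in 6 of 6 and T2 replicate 2 the lowest. T2 replicate 2, the lowest in both averages, was also the list with the weakest cut, and the part of peak strength in these shares was not tested. Without that library the difference between T1-only and T2-only regions at equal length was 16.0 points, and without T2 replicate 1 it was 36.8 points. It was 5.69 points without T1 replicate 1 and 5.49 points without T1 replicate 2, and positive in each case. With the WT-iMOS lists also cut to one length it was 10.6 points, and 2.59 points for regions called on full lists.

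Another property parted the readout from the KO-iMOS lists. All 4 KO-iMOS lists had peaks in the first 2 Mb of the Y chromosome (5 and 6 in T1, 3 and 1 in T2), while 0 of the 12 WT-iMOS lists did, and the X chromosome held 1.46 to 1.72% of the KO-iMOS peaks against 2.13 to 2.45% of those in the WT-iMOS Spi1 lists and 1.20 to 2.81% in the Bcl11a lists. The labels give no sex. The counts did not overlap between T1 and T2 of KO-iMOS either, nor were the lists of one length, and the part of this property in the shares was not tested.

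**Figure D3:**
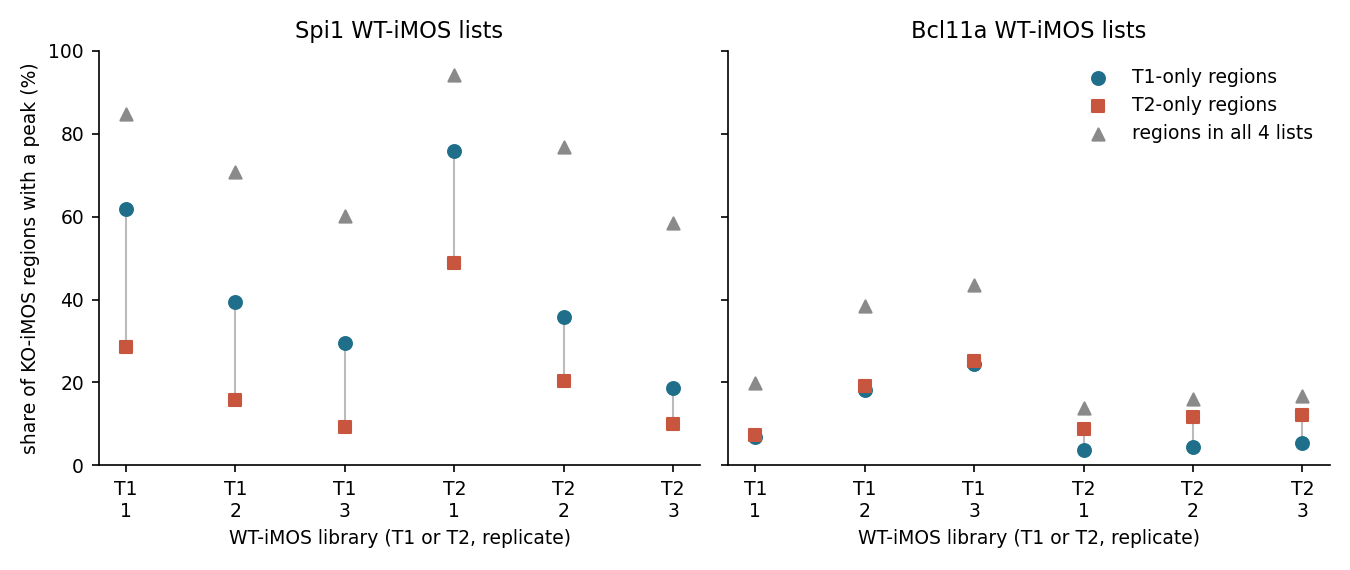
Share of KO-iMOS regions (%) that had a peak in each WT-iMOS list, for Spi1 (left, 6 libraries) and Bcl11a (right, 6 libraries), with regions called on equal-length lists and a line joining T1-only and T2-only in each library. For Spi1 the T1-only point is above the T2-only point in 6 of 6 libraries, whereas for Bcl11a it is below it, by as little as 0.38 percentage points.

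Bcl11a occupancy did not separate the 2 classes in a stable way. At equal length the WT-iMOS Bcl11a lists held 10.5% of T1-only and 14.0% of T2-only regions on average, a difference of -3.45 points ± 3.18 (SD, n = 6), negative in 6 of 6 lists (exact permutation p = 0.03125, adjusted 0.0625). On full lists the difference was 2.54 points (exact permutation p = 0.375) and under the strict rule 5.53 points (exact permutation p = 0.25), so its sign depended on the rule. Without T2 replicate 1 it was 9.40 points at equal length. As for Spi1, the p-values carry none of the spread between the KO-iMOS libraries. In the WT-iMOS Bcl11a T2 lists the equal-length differences were -4.91, -7.15 and -6.77 points and in the T1 lists -0.38, -0.86 and -0.66 points, groups that did not overlap (exact permutation p = 0.1, the smallest possible, adjusted 0.133).

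The leading strict T1-only regions lay mostly outside genes and mostly had a peak in WT-iMOS Spi1 lists as well. They were the 10 with the highest smaller percentile in the 2 full T1 lists. Only 2 of the 10 lay inside a gene, 9 had a peak in at least 3 of the 6 WT-iMOS Spi1 lists and 4 in all 6. Among all 234 strict T1-only regions 48.7% lay inside a gene, beside 55.3% of the 6898 regions tested at equal length. Inpp5d, the phosphatase SHIP1 that restrains cytokine signalling in blood cells, held one in its body (chr1:87650632-87651294), at percentiles 90.2 and 93.6 in T1 and in 6 of 6 WT-iMOS Spi1 and 3 of 6 Bcl11a lists. Ncf4, a cytosolic subunit of the phagocyte NADPH oxidase, held another (chr15:78244589-78245296; percentiles 88.4 and 87.4; 6 Spi1 and 2 Bcl11a lists). Hes1, a repressor downstream of Notch, was the gene nearest to a region 87436 bp away (chr16:30154930-30155533; percentiles 87.4 and 88.6; 3 and 0 lists).

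The highest of the 10, 33074 bp from Gng4, a G protein gamma subunit gene, reached percentiles 99.1 and 99.0 in T1 (chr13:13860779-13861158). It was 380 bp wide and had a peak in all 6 Spi1 and all 6 Bcl11a WT-iMOS lists. A region of 283 bp that lay 106300 bp from Vmn1r2, a vomeronasal receptor gene, shared that pattern (chr4:3065642-3065924; percentiles 92.1 and 95.2; 6 and 6 lists). These 2 thus had a peak in every Spi1 list except those of KO-iMOS T2, and in every Bcl11a list. Bcl11a was profiled in WT-iMOS only. Whether a signal shared by both antibodies is Spi1 occupancy was not tested. The remaining 5 regions were nearest to Slc27a3, an acyl-CoA synthetase of the fatty acid transport family, Nabp1, a single-stranded DNA binding protein, Gm14548, Gm46617 and Sall3, with 2 to 5 WT-iMOS Spi1 lists each.

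The leading strict T2-only regions lay mostly inside genes and were mostly absent from the WT-iMOS lists. Of the 10, 8 were inside a gene, 9 had a peak in at most 1 WT-iMOS Spi1 list, 6 in none, and 10 in no Bcl11a list. Among all 60 strict T2-only regions 65% lay inside a gene, against 48.7% of strict T1-only and 55.3% of all tested regions. The leading regions of the 2 sides thus differed more in this than their classes did. Cdk10, a cyclin-dependent kinase gene, held the highest (chr8:123230343-123231085), at percentiles 94.4 and 95.1 in T2, with a fold enrichment of 10.9 and 11.0 by the authors' peak caller. Tgm3, a transglutaminase, followed at 83.7 and 87.7 (chr2:130048655-130049344). Hk1, the hexokinase that starts glycolysis, held one at 92.6 and 79.6 (chr10:62287507-62288147; 1 WT-iMOS Spi1 list). Tln1, which encodes talin and links integrins to actin, held one at 86.2 and 76.9 (chr4:43560331-43560942; 1 list). Prex1, a Rac exchange factor of neutrophils, was the gene nearest to a region 119439 bp away (83.9 and 77.7; 0 lists). Mid1, a ubiquitin ligase gene on the X chromosome, stood apart: its region had a peak in 6 of 6 WT-iMOS Spi1 lists and 0 Bcl11a lists (chrX:169986498-169987422; percentiles 95.3 and 80.0 in T2, none in T1). Lrp1b, Colgalt1, Ccdc115 and Zfat were nearest to the others, with 0 or 1 Spi1 lists.

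At genes, far more loci had Spi1 in all 4 lists than were called on one side. Each locus took in the gene and the 10 kb before and after it. Of 21883 protein-coding genes 4887 (22.3%) had a peak in all 4 full lists, 787 (3.6%) were T1-only and 42 (0.192%) were T2-only. At equal length these were 3227 (14.7%), 356 (1.63%) and 378 (1.73%). Under the strict rule 78 genes (0.356%) were T1-only and 5 (0.0228%) T2-only. The direction of the full-list counts was thus absent at equal length.

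In 16 gene lists for lineages and functions, 501 genes were measured. Of these, 166 (33.1%) had Spi1 in all 4 lists, 23 (4.59%) were T1-only and 0 T2-only on full lists, 20 (3.99%) and 7 (1.4%) at equal length, and 6 (1.2%) and 0 under the strict rule. The lists describe where Spi1 sits in these cells, beside the 22.3% of all 21883 genes that had a peak in all 4 full lists. All 4 lists had a peak at 12 of 20 ETS family genes, 21 of 40 chromatin regulators, 13 of 25 megakaryocyte genes, 12 of 25 dendritic and antigen presentation genes, 21 of 48 granulocyte and monocyte genes, 16 of 37 cell division genes, 18 of 43 interferon and inflammation genes and 14 of 34 stem and progenitor genes. The shares were lower for lymphoid genes (6 of 37), ribosomal protein genes (9 of 44), stromal and endothelial genes (2 of 20), genes of non-haematopoietic tissues (2 of 36) and mast cell, basophil and eosinophil genes (1 of 21), and stood between for survival genes (9 of 23), erythroid genes (9 of 30) and housekeeping genes (9 of 33). Genes of the granulocyte and monocyte list, the lineages MPP3 cells favour, thus had no higher share than megakaryocyte genes. Ribosomal protein genes (20.5%) and housekeeping genes (27.3%) stood closer to the share over all genes than to the higher lists. Differences between lists were not tested, and the length of the loci was not taken into account.

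The 6 listed genes that were T1-only even under the strict rule came from 6 different lists, and no T2 list had a peak at their loci. Cd48 had its T1 region across the start of the gene (chr1:171681772-171682432), the first promoter printed above, at percentiles 73.7 and 75.5 of the full T1 lists, and a peak there in 3 of 6 WT-iMOS Spi1 lists. Il2ra, the alpha chain of the interleukin-2 receptor, had one 5527 bp outside the gene (chr2:11636977-11637553; 86.6 and 68.2). Siglech, a receptor of plasmacytoid dendritic cells, had one 5224 bp outside (chr7:55784451-55784892; 90.4 and 79.1). Mcm5, a subunit of the replicative helicase, had one in its body (chr8:75119285-75120229; 73.3 and 66.6). Nlrp3 had one at the promoter printed above (chr11:59542413-59542719; 68.8 and 57.0). Rps14, a protein of the small ribosomal subunit, had one at its boundary, at 78.5 and 73.3 and in 6 of 6 WT-iMOS Spi1 lists.

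Further genes of the lists were T1-only on full lists through peaks that fell outside the equal-length list of at least 1 T1 library. The percentiles are those of the highest peak at the locus in each T1 library, and at Il1r1 and Atp5b the 2 values come from different regions. In the lymphoid list these genes were Dntt, the terminal transferase of lymphocyte receptor genes (percentiles 35.8 and 26.9), and Lef1, a Wnt effector (63.2 and 12.1). In the dendritic list they were Itgax, the integrin CD11c (50.6 and 68.7), and Spib, an ETS factor close to Spi1 that also stands in the ETS list (45.0 and 29.5). Elk4, another ETS factor, stood at 66.6 and 14.6. Il1r1, the interleukin-1 receptor (77.9 and 21.4), and Tlr2, a Toll-like receptor (43.4 and 19.3), were in the inflammation list. Ermap (27.9 and 44.8), Ccnb2 (33.3 and 13.9), Hdac1 (36.7 and 39.4), Rps27 (44.2 and 18.6), Rps6 (25.6 and 10.3), Atp5b (52.0 and 40.1), Tuba1b (48.7 and 11.5) and Pdgfrb (40.8 and 16.4) came from the remaining lists. None had any peak in a T2 list.

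**Figure D4:**
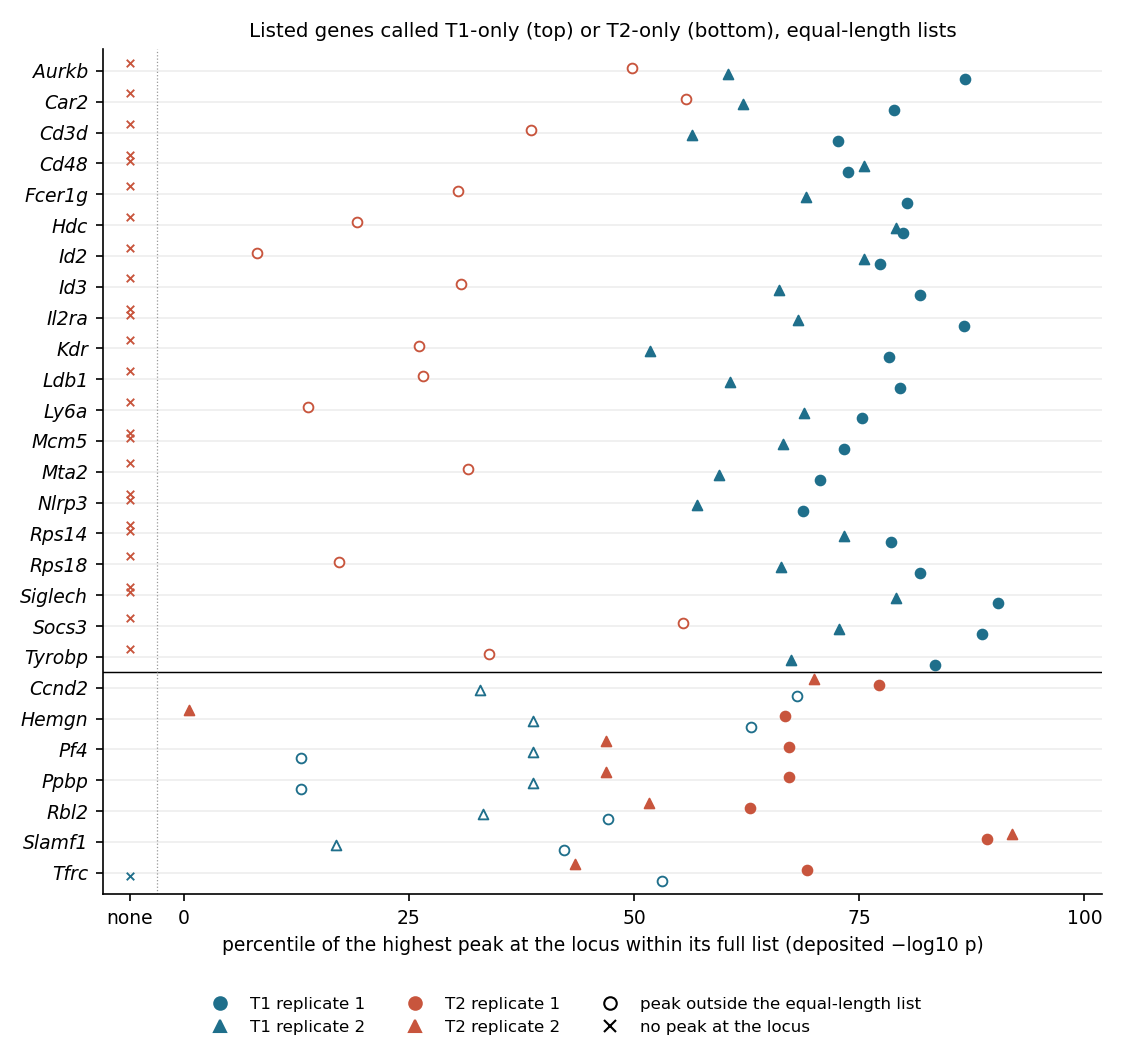
Percentile (0 to 100) of the highest Spi1 peak at each locus within its full list, by library, for the 20 listed genes called T1-only and the 7 called T2-only at equal length, where open symbols mark peaks outside the equal-length list and crosses no peak. T2 replicate 2 has no peak at any of the 20 T1-only loci by construction, since its list was not shortened. The T1 lists were shortened, so T2-only loci could keep T1 peaks below the cut, and 6 of the 7 have a peak in both full T1 lists.

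At equal length 20 listed genes were T1-only and 7 T2-only, or 3.99% and 1.4% of the 501, beside 1.63% and 1.73% of all genes. The genes described here were chosen after their values were seen. The T1-only genes included Fcer1g and Tyrobp, signalling adaptors of myeloid receptors, Id2 and Id3, inhibitors of E proteins, Ly6a, which encodes the stem cell antigen Sca-1, Ldb1, a cofactor of LIM-domain factors, Hdc, the histamine-forming enzyme, and Socs3, a brake on cytokine signalling. The others were Cd48, Il2ra, Cd3d, Car2, Siglech, Aurkb, Mcm5, Nlrp3, Mta2, Rps18, Rps14 and Kdr. At Id2 the region over the promoter printed above had percentiles 77.3 and 75.5 in T1 and no T2 peak. At Hdc a region in the gene stood at 79.8 and 79.1 with no T2 peak, and in 6 of 6 WT-iMOS Spi1 lists. At Tyrobp the higher region stood at 83.4 and 67.4 in T1 and at 33.8 in T2 replicate 1. The other called region at Tyrobp covered the promoter of Hcst. Some further calls rest on regions outside the named gene. The Ldb1 region lay 8545 bp away, over the promoter of Pprc1. The called Fcer1g region lay 6896 bp away, inside Apoa2, and that of Aurkb 9282 bp away. The Mta2 call joined different regions, neither of them called T1-only at equal length. It rested in T1 replicate 1 on a region 3041 bp outside the gene (70.6). In T1 replicate 2 it rested on a region inside the gene (59.4), which also had a peak in T2 replicate 1 (31.5).

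The 7 T2-only genes were Slamf1, Tfrc, Hemgn, Ppbp, Pf4, Ccnd2 and Rbl2. Slamf1 encodes CD150, Hemgn a nuclear protein of erythroid precursors, Ppbp and Pf4 platelet chemokines that count through 1 region they share, Ccnd2 a D-type cyclin and Rbl2 the pocket protein p130. Tfrc had its region over the promoter printed above, at percentiles 69.1 and 43.4 in T2, 34.6 in T1 replicate 1 and none in T1 replicate 2. The Pf4 region stood at 67.2 and 46.9 in T2 and 13.1 and 38.8 in T1. Hemgn rested on a peak at percentile 0.615 in T2 replicate 2, close to the bottom of that list. Its peak in T2 replicate 1 (66.8) lay in another region. Each of these regions also had a T1 peak in the full lists, and neither was itself called T2-only. The Rbl2 call rested in T2 replicate 1 on a region over the promoter of Aktip, 10228 bp from Rbl2 (chr8:91133757-91134386; 62.8). In T2 replicate 2 the highest peak at the Rbl2 locus lay inside the gene (51.7), in a region found in all 4 full lists.

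Cd48 and Slamf1, neighbouring genes of the SLAM family, were called on opposite sides. CD48 and CD150, the proteins they encode, are commonly used to sort such progenitors. The Slamf1 region inside the gene (chr1:171785654-171786303) stood at percentiles 89.1 and 92.0 in T2 and at 42.2 and 16.9 in T1, with a fold enrichment by the authors' caller of 10.9 and 11.1 against 5.97 and 5.29. It was found in 1 of 6 WT-iMOS Spi1 lists. The Cd48 region lies 103 kb away, with a fold enrichment of 8.46 and 8.44 in T1 and no peak in T2. Both calls were made from these same values, and the 2 genes were set side by side after the values were seen. The contrast is therefore a description. Of all 6898 regions tested at equal length, 9.29% were T1-only and 7.2% T2-only.

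The names at equal length changed with the length of the lists. Leaving out any 1 of the 4 libraries with the cut kept at 6337 peaks still called 20 of the 20 and 7 of the 7, as it must. Without T2 replicate 2 and with the cut moved to 12984 peaks, 7 of the 20 T1-only genes were still called (Cd48, Nlrp3, Id2, Rps14, Il2ra, Siglech and Mcm5) and 0 of the 7 T2-only genes. With lists cut to their 3000 highest peaks, an alternative added after the data were seen, 1 of the 20 (Siglech) and 1 of the 7 (Slamf1) were still called.

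The loci of Spi1 and Bcl11a themselves were not called on either side. Spi1 had 2 regions inside the gene in all 4 lists. At chr2:91082586-91083562 they stood at percentiles 79.6 and 59.4 in T1 and 74.7 and 66.9 in T2, and at chr2:91096435-91097372 at 88.4 and 53.7 in T1 and 89.4 and 63.0 in T2. These are percentiles within full lists of unequal length, and on that scale the sides overlapped at both. Their ranks in lists of equal length were not compared. At Bcl11a no region was in all 4 lists. The one found in most, inside the gene at chr11:24139179-24139752, stood at 59.8 and 35.5 in T1, at 71.8 in T2 replicate 1 and was not in T2 replicate 2. A weak region 1250 bp outside the gene (chr11:24174548-24175067) was T1-only on full lists, at 1.40 and 4.30 in T1.

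Within the 3157 regions common to all 4 equal-length lists, rank differed in both directions to a like extent. Both T1 percentiles were above both T2 percentiles in 630 regions (20.0%) and below both in 719 (22.8%). With 2 values against 2, random order sets the sides apart, in either direction, in a share of 0.333. The shares were not tested against it. The widest gaps with T1 on top were in Emc3, a subunit of the ER membrane protein complex (91.4 and 91.9 in T1, 7.68 and 22.7 in T2), Fam234b (84.8 and 91.5, 20.5 and 27.6) and Foxp4, a forkhead factor (57.0 and 67.3, 3.12 and 6.38), then near Pde4b, a cyclic AMP phosphodiesterase, and in Armc7. With T2 on top they were near 9130008F23Rik (11.9 and 3.16 in T1, 85.8 and 81.4 in T2) and in 9530077C05Rik, Gm36722, S1pr2, a sphingosine-1-phosphate receptor (7.69 and 1.89, 70.2 and 67.0), and Txnl4a, a spliceosome protein. These were ranked by their gap, which is a description.

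At equal length a PU.1 motif was in a share of T1-only promoters near that of common ones. Its share in T2-only promoters was between that and all promoters. These differences were not tested. The 8-letter PU.1 motif GAGGAAGT, or ACTTCCTC on the other strand, was in 3.13% of all 21262 promoter windows (250 bases before to 50 after a start), in 8 of 93 windows (8.60%) under T1-only regions, 8 of 185 (4.32%) under T2-only regions and 97 of 1167 (8.31%) under common regions of the equal-length lists. On full lists the motif was in 16 of 430 windows (3.72%) under T1-only, 0 of 22 under T2-only and 132 of 1979 (6.67%) under common regions. The T1-only share thus depended on the rule. Under the strict rule it was in 1 of 20 T1-only and 0 of 2 T2-only windows. Windows of neighbouring genes can share 1 region. The motif contains the GGAA core. Of the promoters printed above, Cd5 and Pf4 hold the motif. GGAA or TTCC was present in 95.7% of all windows, at a mean of 3.49 per window. The means were 4.24, 3.90 and 3.90 in the windows of the 3 equal-length classes. The GC box GGGCGG, or CCGCCC, was in 46.2% of all windows and in 71.0, 70.3 and 68.6% of those of the classes. A match is a description of these letters and not a site. Of the promoters shown, Cd5 had its region at percentiles 86.4 and 63.6 in T1 and none in T2, Dok3 at 94.6 and 69.6 in T2 and 36.9 in T1 replicate 1, and Nr0b2 at 74.8 and 46.0 in T2 and none in T1.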

How the data were processed

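MPP3 cells were sorted from mouse bone marrow and a commercial kit was used for CUT&Tag, per the labels' protocols. The submitters' processing notes name Bowtie2, SAMtools, MACS2 and mm10, with no version; settings and any control sample are not given in the sources used here. The authors deposited 1 narrowPeak list per library. Its columns are coordinates, a deposited integer score (not used), a deposited fold enrichment (a ratio to local background), and deposited −log10 values of p and q. The −log10 p was used to rank peaks within a list only. Without reads per peak the depth stays unknown, and list length sets the precision. At most 56 intervals were identical between 2 of the 4 lists, so none was a repeat deposit.

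Peaks on assembled chromosomes were merged at 1 bp (Python 3.11.15, numpy 2.4.6, pandas 2.3.3, scipy 1.17.1, matplotlib 3.10.9) and called on full lists (as planned), at equal length and strictly. Genes were 21883 protein-coding genes of RefSeq, GRCm38.p6, without exons or UTRs; starts were listed for 17491, with none on chromosome 18, whose regions are left out of the shares measured from starts. No genome sequence was used, so motifs were searched in promoter windows. Differences in WT-iMOS shares were tested by exact sign-flip or label permutation with Benjamini-Hochberg adjustment. These tests took the called regions as fixed and permuted WT-iMOS lists only. The calling code was tested on simulated data. Of 504 listed genes 501 were found. Named were the 10 leading strict regions per side, up to 3 genes per list and side called on full lists, and Spi1 and Bcl11a. Other names were chosen after their values were seen. The members and lists were chosen with earlier results of these data known. Alternatives were other list lengths, overlaps, thresholds, distances and leaving out each library.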

Additional observations from a re-analysis of the deposited data

Results flagged for a closer look

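Peaks on unplaced contigs, which the comparison leaves out, were flagged because they carry signal outside the main measurement. They merged into 83 regions, of which 31 had a peak in all 4 KO-iMOS lists, 1 was T1-only and 0 T2-only.

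The difference between T1-only and T2-only regions in the Bcl11a WT-iMOS lists, with regions called on full lists, pointed opposite ways in the WT-iMOS groups. The mean was 5.98 percentage points in the 3 T1 lists, all positive, and -0.898 in the 3 T2 lists, all negative (exact permutation of the difference p = 0.1, the smallest possible, adjusted 0.2). At equal length both groups were negative.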

How the results depend on the processing

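With 2 libraries a side an exact permutation cannot go below 0.333, the depth is unknown, and no count of regions or genes was tested. T1-only regions numbered 641 at equal length, 234 under the strict rule and 312 with 3000 peaks per list, against 2147 on full lists; T2-only regions numbered 497, 60 and 263 against 183. T1-only genes were 356, 78 and 204 against 787, and T2-only genes 378, 5 and 220 against 42. Leaving out each library gave 2345 to 7796 T1-only and 240 to 2415 T2-only regions on full lists, and 1274 to 1832 and 749 to 2629 at equal length. For genes it gave 876 to 3971 and 68 to 593 on full lists, and 696 to 918 and 622 to 1189 at equal length. Dropping a library loosens the call by construction, since 1 list then stands for its side, and dropping T2 replicate 2 also moves the equal length from 6337 to 12984 peaks. With 6337 kept, an alternative added after the data were seen, it gave 957 and 1294 regions and 574 and 850 genes.

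The share near a gene boundary on full lists (22.2% T1-only, 17.5% T2-only) was 20.0% and 32.6% at equal length, 14.5% and 3.33% under the strict rule, 30.8% and 27.3% within 3 kb, 18.8% T1-only from listed starts, and 22.2 to 33.5% and 17.3 to 29.4% without each library. At equal length it was 14.3% T1-only from listed starts, and 21.6 to 28.2% and 30.6 to 35.9% without each library; T1-only minus T2-only ranged from -16.8 to -4.19 percentage points in these runs and with 3000 peaks.

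The Spi1 difference in WT-iMOS lists was positive under every alternative run, 2.67 to 21.6 points on full lists and 5.49 to 36.8 points at equal length without each library. For Bcl11a the full-list value of 2.54 points was -3.45 at equal length and -0.408 to 8.86 without each library; the equal-length value was 0.150 with 3000 peaks and -5.28 to 9.40 without each library. The within minus between Jaccard index of 0.0191 ranged from -0.0560 to 0.147 without each library. The cause was not tested.

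The labels tie no same-numbered libraries together. Deviations of same-numbered lists correlated at 0.202 on full lists and -0.00436 at equal length (2 pairs). With a replicate block, the difference of 6005 peaks had an exact permutation p of 0.5 and that of -1.42 percentage points near a boundary a p of 1; the counts of T1-only (2147) and T2-only (183) regions are the same under the block by construction.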

Other observations

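A Y chromosome region at chrY:260931-261602 was in all 4 KO-iMOS lists, with a fold enrichment by the authors' caller of 11.2 and 13.4 in T1 and 10.5 and 8.04 in T2, and in 0 of 12 WT-iMOS lists. Another, 110 bp from Eif2s3y, a Y-linked translation factor gene, was in both T1 lists (chrY:1010260-1010644; 6.06 and 5.79), in no T2 list and in 0 of 12 WT-iMOS lists.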
